A study of Mus musculus with 2 samples.

Results

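The Mir181 family of the mouse consists of 6 microRNA (miRNA) genes in 3 clusters, and all 6 had a row in both small RNA libraries of the embryonic neural tube. They were taken by name, through the gene identifiers of the files matched to GENCODE symbols, and are 6 of 1973 miRNA genes counted. Mir181a-1 and Mir181b-1 lie together on chromosome 1, Mir181a-2 and Mir181b-2 on chromosome 2, and Mir181c and Mir181d on chromosome 8. The tissue was the neural tube, the forerunner of brain and spinal cord, of healthy B6NCrl embryos at embryonic day 11.5. Embryos of both sexes were pooled. The single group held 2 biological replicates, with 109 embryos in the pool of replicate 1 and 88 in the pool of replicate 2. No other tissue, stage or treatment was compared. The values thus describe the level of each member and how far the libraries lay apart.

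A miRNA is cut from a hairpin in a longer transcript, and either arm of the hairpin, the 5p or the 3p arm, can give the mature RNA. The mature RNA guides a silencing complex to mRNAs through its seed, bases 2 to 8. The miR-181 family is known from the brain and from lymphocytes. There, miR-181a tunes the sensitivity of developing T cells to antigen. miR-181b is also known as a brake on inflammatory signalling in the vessel wall, and miR-181c as a regulator of a mitochondrial mRNA in the heart.

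The mature 5p sequences are shown because they define the family and because they decide which copies a read can tell apart. Sequences are from RefSeq (GRCm38.p6), which held both mature arms of all 6 genes. Capitals mark the seed, which was ACAUUCA in the 5p arm of every member.
miR-181a-5p, of Mir181a-1 and Mir181a-2: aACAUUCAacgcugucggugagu
miR-181b-5p, of Mir181b-1 and Mir181b-2: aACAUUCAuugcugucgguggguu
miR-181c-5p, of Mir181c: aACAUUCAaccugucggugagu
miR-181d-5p, of Mir181d: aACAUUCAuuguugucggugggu

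Among the 1738 mature arms of the RefSeq table, no gene outside the family carried the seed ACAUUCA at bases 2 to 8. Outside the seed the 5p arms form an a and c type and a b and d type. Counted from the 5′ end, miR-181a-5p becomes miR-181b-5p by A9U, C10U and A21G over the 23 bases they share in length. miR-181b-5p becomes miR-181d-5p by C12U over 23 bases. miR-181c-5p is 1 edit, the loss of a base, away from miR-181a-5p. The 3p arms are less alike and carry 4 seeds of their own, again in capitals.
miR-181a-1-3p: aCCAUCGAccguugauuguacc
miR-181a-2-3p: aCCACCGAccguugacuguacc
miR-181b-1-3p: cUCACUGAacaaugaaugcaa
miR-181b-2-3p: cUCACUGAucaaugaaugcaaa
miR-181c-3p: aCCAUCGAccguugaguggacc
miR-181d-3p: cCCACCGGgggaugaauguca

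The 3p arms of Mir181a-1 and Mir181c shared the seed CCAUCGA and differed by U16G and U19G. Those of Mir181b-1 and Mir181b-2 shared UCACUGA. Each of the 6 mature 3p sequences occurred in 1 of the 2202 annotated miRNA hairpins, that of its own gene. The same held for the 5p sequences of Mir181c and Mir181d. The sequences of miR-181a-5p and miR-181b-5p each occurred in 2 hairpins, those of their copies. The 5p stretches of these copies, with the 10 bases that follow the mature sequence in the hairpin, show where they part. The capital marks the first base that differs.
Mir181a-1: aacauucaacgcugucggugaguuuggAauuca
Mir181a-2: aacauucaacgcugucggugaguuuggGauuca
Mir181b-1: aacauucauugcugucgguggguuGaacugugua
Mir181b-2: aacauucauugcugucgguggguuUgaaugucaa

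The run shared by Mir181a-1 and Mir181a-2 around this arm was 28 bases, 1 before the mature sequence and 4 after it. For Mir181b-1 and Mir181b-2 it was 26 bases, 2 before and 0 after. Reads that stay inside these runs map to both copies. Such reads were counted in a row of their own and for no gene, and this row took up 25.2% of the reads of replicate 1 and 27.3% of those of replicate 2. How many of them were miR-181a-5p or miR-181b-5p was not analysed here. The counts of the 4 copied genes therefore hold no exact reads of the mature 5p arm, and each of the values given for them covers only the reads counted. Mir181c and Mir181d shared at most 17 and 13 bases with any other hairpin. Their counts can hold exact reads of both arms, so the members are not alike in what was counted. Counts are per hairpin, so the arms were not told apart for any member.

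**Figure D1:**
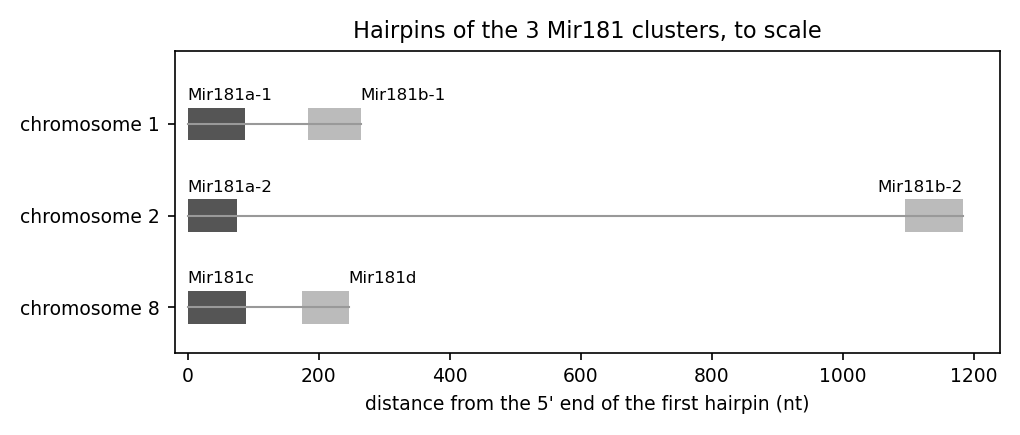
Map of the 3 clusters, with the hairpins drawn to scale against the distance in nucleotides from the 5′ end of the first hairpin of each cluster (horizontal axis) and 1 line per chromosome. The gap between the hairpins was 97 nt on chromosome 1, 1019 nt on chromosome 2 and 85 nt on chromosome 8.

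In the GENCODE M21 annotation of GRCm38, also called mm10, the clusters have unlike surroundings. Mir181a-1 (ENSMUSG00000065565.1; chr1:137966455-137966541) and Mir181b-1 (ENSMUSG00000065458.1; chr1:137966639-137966718) lie on the plus strand in an intron of the noncoding gene Gm4258. Mir181b-1 also overlaps an exon of the noncoding A430106G13Rik, and the last 11 bases of Mir181a-1 reach into that gene. Mir181a-2 (ENSMUSG00000065423.1; chr2:38852735-38852810) and Mir181b-2 (ENSMUSG00000065578.1; chr2:38853830-38853918) lie on the plus strand with no host annotated on that strand. On the opposite strand they lie in an intron of Nr6a1, the gene of an orphan nuclear receptor, and the noncoding Nr6a1os ends 364 nt before Mir181a-2 on its own strand. Mir181b-2 also overlaps an exon of Gm44144 on the opposite strand. Mir181c (ENSMUSG00000065483.1; chr8:84178873-84178961) and Mir181d (ENSMUSG00000076338.1; chr8:84178716-84178787) lie on the minus strand in an intron of Nanos3, a gene of germ cell development.

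In the reads counted, the 6 genes together took 2.05% ± 0.159 (SD, n = 2) of the counts on the own strand of miRNA genes. Replicate 1 held 80177 such counts of the family, or 2.16% (95% Wilson interval 2.15 to 2.18), and replicate 2 held 78571, or 1.94% (1.92 to 1.95). The libraries held 3708662 and 4055883 own-strand counts in all. The intervals cover counting error only, and they do not overlap. The order of the libraries depended on the denominator, since the family made up 0.940% of the reads of replicate 1 and 1.03% of those of replicate 2, and 1.96% and 2.14% of totals scaled by edgeR's TMM factors (trimmed mean of M values). When genes were grouped by the number in their symbol, Mir181 ranked 9 of 853 such groups in both libraries. By the mean of both libraries it stood between Mir126 at 2.36%, a gene of endothelial cells, and Mir20 at 1.96%, part of clusters tied to proliferation. In replicate 1 the next group was Mirlet7 at 2.04%, ahead of Mir20 at 2.02%.

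Levels are given as counts per 1000000 own-strand miRNA counts (CPM). Each read stands for 1 small RNA, so no length scaling was applied. By the reads counted, Mir181c was the highest member, with 6956 CPM in replicate 1 and 7052 CPM in replicate 2. Mir181d followed with 6831 and 4865 CPM. The libraries were almost equal for Mir181c, whereas Mir181d was lower in replicate 2.

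Mir181a-1 had 3468 CPM in replicate 1 and 4605 CPM in replicate 2. Mir181b-2 had 3950 and 2545 CPM. These 2 genes of different clusters changed places between the libraries. The remaining members were far lower. Mir181a-2 had 332 and 253 CPM. Mir181b-1 was the lowest at 81.4 and 52.5 CPM.

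**Figure D2:**
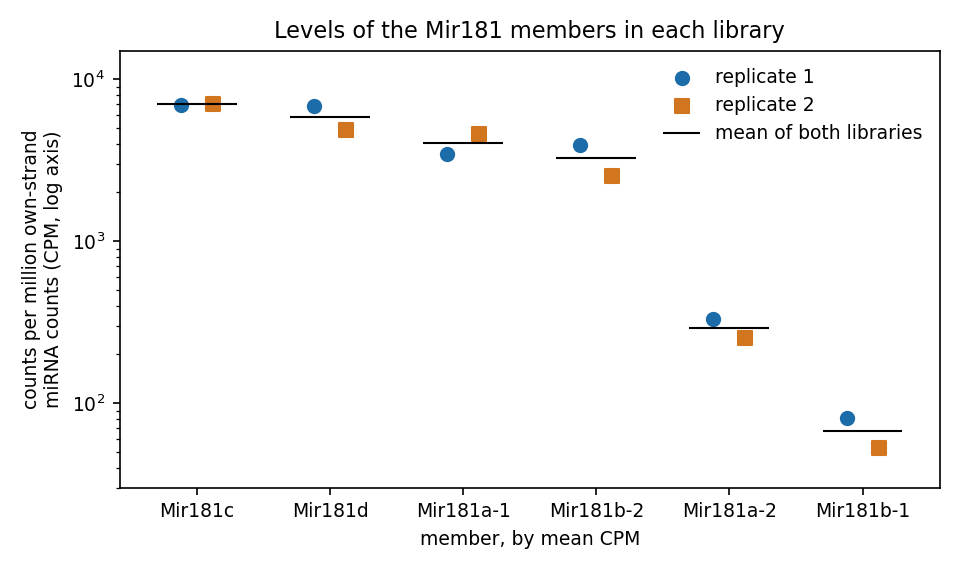
Level of each member in each library (points, CPM on a log axis) with the mean of both libraries (bar), members ordered by mean. Mir181c, Mir181d, Mir181a-1 and Mir181b-2 lie between 2545 and 7052 CPM, and Mir181a-2 and Mir181b-1 between 52.5 and 332 CPM.

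As means with their spread, the order was Mir181c (7004 ± 67.9 CPM, SD, n = 2), Mir181d (5848 ± 1390), Mir181a-1 (4037 ± 803), Mir181b-2 (3247 ± 993), Mir181a-2 (293 ± 55.8) and Mir181b-1 (67.0 ± 20.4). The level of Mir181c was 1.02 times that of Mir181d in replicate 1 and 1.45 times in replicate 2. Mir181d exceeded Mir181a-1 by 1.97-fold and 1.06-fold in the reads counted, which hold no exact 5p reads of Mir181a-1. In both cases the ranges over the libraries did not overlap, but the size of the difference was itself unequal between the libraries. The ranges of Mir181a-1 and Mir181b-2 overlapped, and their order turned, so these neighbours did not differ beyond their spread. Mir181b-2 exceeded Mir181a-2 by 11.9-fold and 10.05-fold, and Mir181a-2 exceeded Mir181b-1 by 4.08-fold and 4.82-fold. With 2 libraries the smallest two-sided p of an exact permutation test of gene against gene is 0.5, so the order rests on both libraries giving it. Among all 1973 genes the members ranked 30, 34, 46, 54, 143 and 231 by mean CPM of the reads counted.

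The genes closest in mean level were those ranked next to the 3 highest members, a likeness over 2 libraries only. Mir298 (7035 ± 1279 CPM) and Mir30a (6874 ± 226 CPM) stood on either side of Mir181c. Mir411 (5913 ± 1314 CPM) and Mir652 (5829 ± 1636 CPM) stood beside Mir181d, and both were also lower in replicate 2. Mir125a (4248 ± 1468 CPM) and Mir15a (3952 ± 829 CPM) stood beside Mir181a-1. Both had the opposite order of libraries to Mir181a-1, with 5286 and 3210 CPM for Mir125a and 4538 and 3365 CPM for Mir15a.

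Within each cluster the members held unequal shares, and the larger member was not the same letter in both a and b clusters. On chromosome 1, Mir181a-1 exceeded Mir181b-1 by 42.6-fold in replicate 1 (95% Wilson interval 38.0 to 47.7) and 87.7-fold in replicate 2 (76.6 to 100.3). On chromosome 2 the order was the reverse, and Mir181b-2 exceeded Mir181a-2 by 11.9-fold (11.2 to 12.6) and 10.05-fold (9.43 to 10.7). On chromosome 8, Mir181c exceeded Mir181d by 1.02-fold (1.00 to 1.04) and 1.45-fold (1.42 to 1.48).

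The ratio within a cluster needs no scaling of the libraries. It differed between the libraries in all 3 clusters by Fisher's exact test with Benjamini-Hochberg adjustment over the 3. The odds were 2.06-fold higher in replicate 2 for Mir181a-1 over Mir181b-1 (exact adjusted p = 1.04e-15), 1.18-fold higher for Mir181a-2 over Mir181b-2 (exact adjusted p = 0.000151) and 1.42-fold higher for Mir181c over Mir181d (exact adjusted p = 1.05e-167). In all 3 clusters, then, the member named first (Mir181a-1, Mir181a-2 or Mir181c) gained on its neighbour in replicate 2. These tests take reads as independent and set 2 libraries against counting error, so they compare libraries and not conditions. Exact reads of the shared 5p arms are missing from the ratios on chromosomes 1 and 2. How many such reads there were was not analysed here. The pattern can therefore not be read as one of the 5p types. Mir181c and Mir181d shared no run of 20 nt or more with another hairpin.

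**Figure D3:**
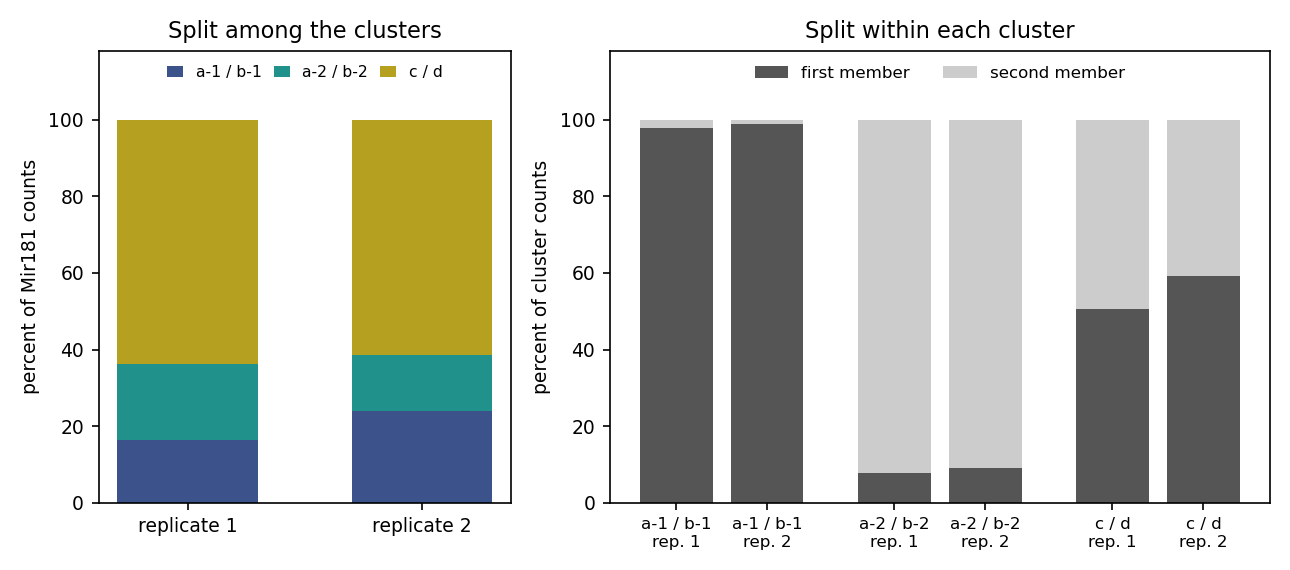
Left, percent of all Mir181 counts held by each cluster in each library (bars sum to 100). Right, percent of each cluster's counts held by its first member (a-1, a-2 or c, dark) and second member (b-1, b-2 or d, light). The c and d cluster holds 63.8% and 61.5% of the family, the first member leads on chromosome 1, the second on chromosome 2, and the split on chromosome 8 is near even in replicate 1.

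Most of the counted reads of the family came from the cluster in Nanos3. Mir181c and Mir181d held 63.8% of the family counts in replicate 1 (95% Wilson interval 63.4 to 64.1) and 61.5% in replicate 2 (61.2 to 61.9). Mir181a-1 with Mir181b-1 held 16.4% (16.2 to 16.7) and 24.0% (23.7 to 24.3). Mir181a-2 with Mir181b-2 held 19.8% (19.5 to 20.1) and 14.4% (14.2 to 14.7). The clusters on chromosomes 1 and 2 thus changed order between the libraries, while the cluster on chromosome 8 led in both. The split of each cluster against the rest differed between the libraries by Fisher's exact test, the largest exact adjusted p over the 3 being 1.49e-20 for chromosome 8. Since exact mature 5p reads of the copied genes were counted for no gene, the lead of chromosome 8 holds only for reads counted. The part of the uncounted reads in it was not tested.

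The reads counted for each pair of copies lay mostly on 1 gene, on chromosome 1 for the a copies and chromosome 2 for the b copies. Exact mature 5p reads cannot be placed on either copy. The splits therefore do not give the source of miR-181a-5p or miR-181b-5p. Mir181a-1 held 91.3% of the counts of Mir181a-1 and Mir181a-2 in replicate 1 (95% Wilson interval 90.8 to 91.7) and 94.8% in replicate 2 (94.5 to 95.1). Mir181b-2 held 98.0% of the counts of Mir181b-1 and Mir181b-2 in both (97.7 to 98.2 in each). The b copies kept the same split while their summed counts went from 14950 to 10534. The a copies moved by 3.53 percentage points toward Mir181a-1.

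Such a split was set beside the 21 other miRNAs with rows for 2 copy-numbered genes and at least 100 summed counts. In these pairs the larger copy held a median of 79.4% of counts, from 58.1% to 99.0%, as means of both libraries. Of the 21, 4 had a larger share on 1 copy than Mir181a and 2 than Mir181b. Mir9, at 98.9%, is in both counts, though a further gene of it, Mir9-1, had no row used here. The larger copy was the same gene in both libraries in all 21. Many such pairs share mature sequence as Mir181a and Mir181b do, so these shares too cover only the reads counted.

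**Figure D4:**
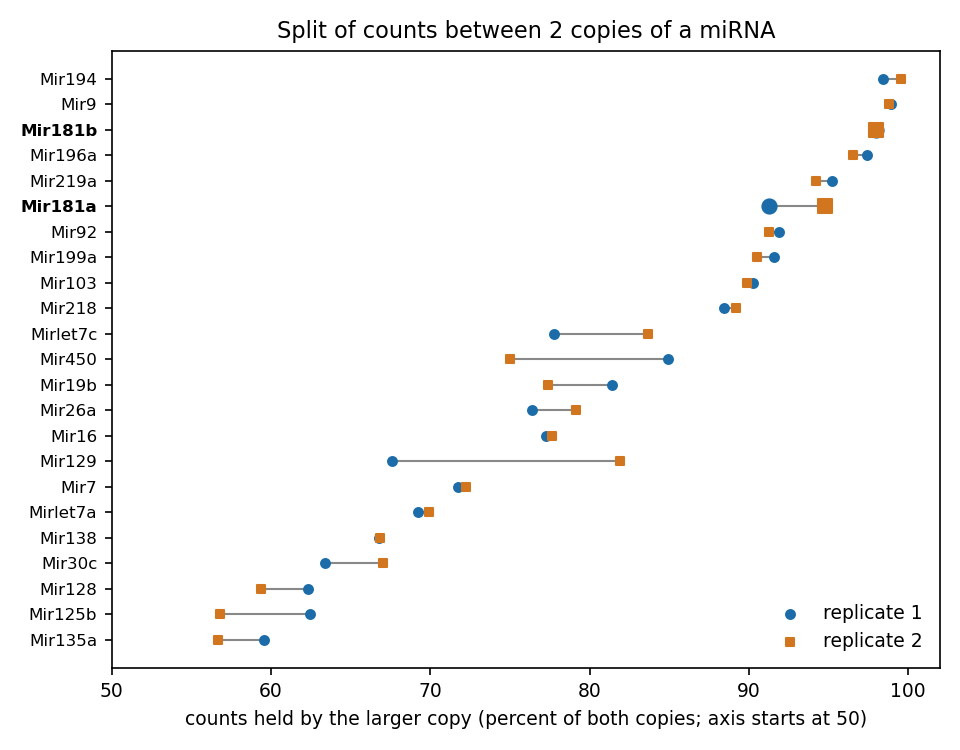
Percent of the counts of 2 copies that lay on the larger copy (horizontal axis, starting at 50) in replicate 1 (circle) and replicate 2 (square), for 23 miRNAs with at least 100 summed counts. Mir181b sits at 98.0% in both libraries and Mir181a at 91.3% and 94.8%, both above the median of 79.4% of the other 21.

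Library by library, 5 of the 6 members differed beyond counting noise when each was tested against the library totals with an exact two-sided binomial test, the p-values adjusted by Benjamini and Hochberg's method over all 444 genes with at least 10 summed counts. Of those 444 genes 53.2% passed, and of the 301 with at least 100 summed counts, as all members had, 74.8% passed. The members' count is therefore read as near the background. In direction, 4 of 6 members passed as higher in replicate 1, against 45.3% of the 444 genes, and 1 of 6 as higher in replicate 2, against 7.88%. Directions were not taken for the 301 genes, of which more passed, so no excess of members is read from these shares.

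Mir181b-2, with 14648 counts in replicate 1 and 10321 in replicate 2, exceeded its level in replicate 2 by 1.55-fold (adjusted p of the exact binomial test = 1.92e-259). Mir181b-1, with 302 and 213 counts, was also 1.55-fold higher (exact binomial adjusted p = 2.77e-06). Mir181d, with 25334 and 19731 counts, was 1.40-fold higher (exact binomial adjusted p = 5.53e-281). Mir181b-2, Mir181b-1 and Mir181d thus all lay toward replicate 1. Mir181a-2, with 1232 and 1027 counts, lay 1.31-fold above replicate 2 (exact binomial adjusted p = 4.80e-10).

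Mir181a-1 was the exception, with 12863 counts in replicate 1 and 18676 in replicate 2. It was 1.33-fold higher in replicate 2 (95% interval 1.30 to 1.36; exact binomial adjusted p = 1.04e-135). Among the 152 genes whose mean over the libraries was 1000 counts or more, its log2 ratio of -0.41 was the lowest, whereas 12 of these genes had a higher ratio than Mir181b-2 at 0.63. Mir181c, with 25798 and 28603 counts, did not pass (exact binomial adjusted p = 0.182), and its fold of replicate 2 over replicate 1 was 1.01 (0.997 to 1.03).

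Taken as log2 of replicate 1 over replicate 2, the 6 members had a median ratio of 0.44, from -0.41 to 0.63, and all 444 tested genes one of 0.27. Since the median gene lay toward replicate 1, the scaling bears on the calls. TMM factors moved every log2 ratio by -0.28. With them Mir181a-2 no longer passed (exact binomial adjusted p = 0.170) and Mir181c passed, 1.23-fold above replicate 1 (exact binomial adjusted p = 3.46e-132), while 40.1% of all tested genes passed. With DESeq2's size factors all 6 passed, against 42.1% of tested genes, and likewise with totals taken without the 10 most abundant genes, against 41.4%. Counts of either strand gave 5 members, against 54% of tested genes, and a filter of at least 1 summed count also gave 5, against 31.6%. No member changed direction under any of these scalings, and Mir181a-1 was 1.62-fold higher in replicate 2 with TMM factors.

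A further test set the members against 1 spread between the libraries for all genes, whatever their level. The common dispersion of edgeR put that spread at a coefficient of variation of 22.7%. That dispersion was estimated from the same 2 libraries, so the test only places a gene's difference among those of all genes. It cannot show that a member did not differ. In a normal test of the log2 ratio widened by this dispersion, 0 of 6 members passed (smallest adjusted p = 0.987), and 0 had an unadjusted p below 0.05. In the same test 1.35% of the 444 genes passed, and with TMM factors, which again left 0 members past it, 1.58%. Mir181a-1 came closest with TMM factors, at an unadjusted p of 0.054 in this widened test. The differences in 5 members were thus larger than counting noise and did not pass against a common spread taken over genes of all count levels. Among the genes of 1000 counts or more, Mir181a-1 had the lowest log2 ratio, with Mir467c close to it at -0.39. That level was chosen with earlier results known. Genes of fewer counts, such as Mir208b at -1.18, lay lower.

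**Figure D5:**
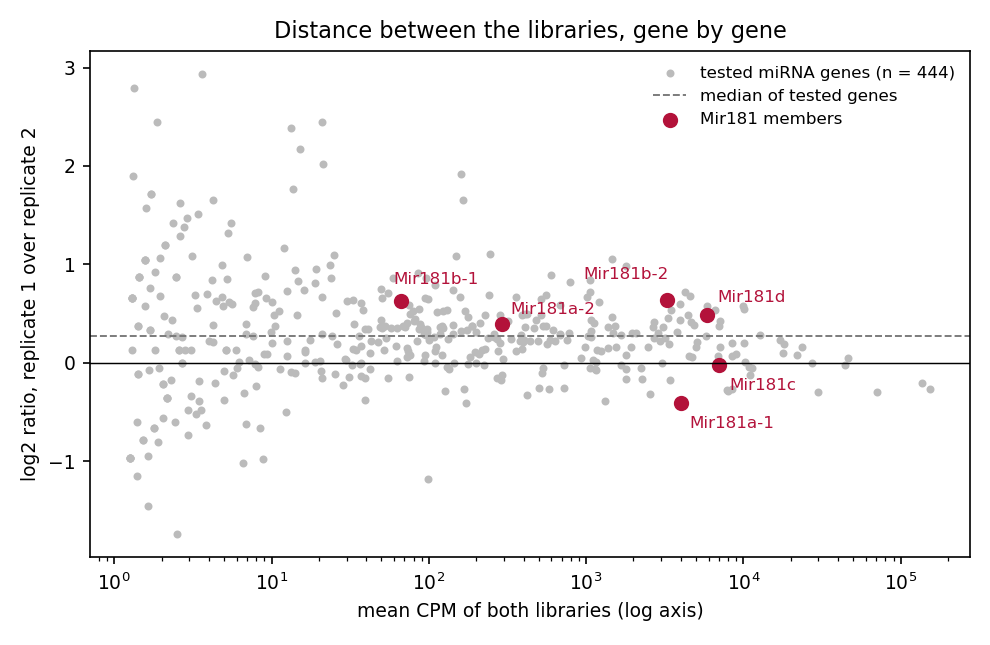
Log2 ratio of replicate 1 over replicate 2 (vertical axis) against mean CPM (horizontal log axis) for 444 tested miRNA genes (grey) and the 6 members (red), with the median of tested genes at 0.27 (dashed). Mir181a-1 lies at -0.41, below other genes of like level, and Mir181b-2, Mir181b-1 and Mir181d lie between 0.49 and 0.63.

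Hairpins of a cluster can come from 1 primary transcript, so the distance between neighbours was compared with that of other clustered genes. Of 100 pairs of adjacent miRNA genes on the same strand at most 10000 nt apart, with at least 100 summed counts each, 97 lay outside the family. The log2 ratios of neighbours in these 97 pairs differed by a median of 0.29, with quartiles of 0.13 and 0.50 and a highest value of 1.20. Mir181a-1 and Mir181b-1, 97 nt apart, differed by 1.04, rank 3 of the 100 pairs. Mir181c and Mir181d differed by 0.51, rank 26, and Mir181a-2 and Mir181b-2 by 0.24, rank 61. The neighbours on chromosome 1 were thus among the pairs that parted most, and those on chromosome 2 lay near the median. The pairs are a description of 2 libraries, and those with few counts also hold counting noise.

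Reads on the strand opposite the members were all but absent. There was 1 such read opposite Mir181a-2 in replicate 1 and 0 opposite the other members in either library. Given such a 0, a true level of up to 3 counts is allowed, or 0.809 CPM at the depth of replicate 1 and 0.740 CPM at that of replicate 2.

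The labelled tissue was set beside lists of miRNAs known from cell types that the dissection could hold. These lists were chosen with earlier results of these data known, so they are no test of the tissue. The neural list took 1.52% ± 0.233 of counts over 11 genes, led by Mir219a-2 (7100 ± 1480 CPM), Mir92b (4979 ± 383 CPM) and Mir137 (1965 ± 289 CPM). Mir219a-2, the largest part of the sum, was in the list without its copy Mir219a-1 (390 ± 26.7 CPM). The copies of Mir124a and Mir9, the best known neuronal and neural progenitor miRNAs, were named after their values were seen. Mir9-1 had no row used here. Mir9-3 had 741 and 813 counts and Mir124a-2 had 44 and 37, while Mir124a-1 (10 and 9), Mir124a-3 (7 and 5) and Mir9-2 (8 and 10) were near 0. How many of their reads mapped to several copies was not analysed here. Summed over the family, the counts were 1.28 times those of the neural list in replicate 1 and 1.43 times in replicate 2. These ratios rest on the choice of list genes and on the reads counted.

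Lymphoid and myeloid genes, of the lineages where the family is best known, took 0.0454% ± 0.0103 over 5 genes. Mir223 (229 ± 53.4 CPM), Mir155 (189 ± 34.2 CPM) and Mir146, the gene of miR-146a (23.7 ± 11.1 CPM), led them. Mir142 had no row of its own used here and is not in this sum. Mir142b, on the other strand of the same place, had 0 own-strand counts and 2017 and 1693 counts on the opposite strand, a value named after it was seen. The family exceeded the list without Mir142 by 41.1-fold and 50.9-fold. That list held 1953 and 1545 counts, so these folds would be far lower with the opposite-strand counts added. Erythroid genes took 0.0444% ± 0.0107, with Mir451a at 418 ± 101 CPM and Mir144 at 25.7 ± 6.36 CPM. Endothelial Mir126a took 2.36% ± 0.187. Muscle genes took 0.122% ± 0.0376 over 8 genes, with Mir206 at 1060 ± 423 CPM, Mir208b at 98.2 ± 53.9 CPM and Mir133b at 36.2 ± 4.84 CPM. The copies Mir133a-1 and Mir133a-2 had 0 counts, but how many reads mapped to both was not analysed here. Mir1a-1 had 1 and 0 counts, and Mir1a-2 had no row used here. As shares of own-strand counts, all 5 lists were lower in replicate 2, as the family was. The neural list went from 1.69% to 1.36%, the lymphoid and myeloid list from 0.0527% to 0.0381%, the erythroid list from 0.0520% to 0.0368%, Mir126a from 2.49% to 2.23% and the muscle list from 0.148% to 0.0949%. These are sums, and not every gene followed its list. In the muscle list Mir206 went from 1358 to 761 CPM and Mir133b from 39.6 to 32.8 CPM. By contrast, Mir208b rose from 60.1 to 136 CPM and Mir208a from 4.31 to 8.88 CPM. As shares of all reads or of totals scaled by TMM factors, the family and Mir126a were higher in replicate 2, and the other 4 lists were lower. The part of the cell types in the levels of the members was not tested. In such bulk samples, fewer cells of a type and less RNA per cell cannot be told apart.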

How the data were processed

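The 2 libraries held RNA shorter than 30 nt. The deposited values are raw read counts per miRNA gene, for mm10 and GENCODE M4 per the notes deposited with them. For the aligner, the counter and adapter trimming, nothing is stated in the labels or files used. The 3 unnamed columns of counts were read as either, own and opposite strand from their values, and own-strand counts were used. Rows that name no gene made up 56.5% of reads in replicate 1 and 47.0% in replicate 2 and stayed out of totals. They were unmapped reads (24.5% and 15.2%), reads mapped to several places (25.2% and 27.3%) and reads on no gene's own strand (6.83% and 4.49%). Per-sample columns tied to no sample numbered 0. Own-strand counts were 43.5% of 8530505 and 53.0% of 7655421 reads.

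Symbols and coordinates came from GENCODE M21 (1894 of 1973 genes matched), with 1 list gene, Mir146a, found as Mir146 by its RefSeq synonym. CPM used own-strand totals, and log2 ratios a pseudocount of 0.5 counts. The exact binomial test (two-sided) was run per gene, adjusted by Benjamini-Hochberg over 444 genes with a threshold of 0.05. It was first tried on simulated counts with counting noise only, so the trial did not cover spread between libraries. Copies of a read made by PCR make these p-values too small. Replicates are separate pools per the labels. Named genes were all members, the genes ranked next to the 3 highest members, and up to 3 per list with at least 10 summed counts. Members, lists, the pairs of copies and of neighbours, and the level of 1000 counts were chosen with earlier results of these data known. Tools were R 4.3.3, edgeR 4.0.16, DESeq2 1.42.0, Python 3.11.15, numpy 2.4.6, pandas 2.3.3, scipy 1.17.1 and matplotlib 3.10.9. Alternatives were other scalings, filters, strand, denominator, pseudocount, a test widened by the dispersion, and leaving out either library.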

Additional observations from a re-analysis of the deposited data

How the results depend on the processing

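The number of members past the test was 5, and 5 or 6 under the other scalings, filters and counts of either strand. With the test widened by edgeR's common dispersion it was 0 of 6, and also 0 with TMM factors and their dispersion (coefficient of variation 17.6%), the latter chosen after seeing the data. In the widened test 6 genes passed in place of 236, or 19 at an unadjusted p under 0.05, and 0 members had such a p under either scaling. The widened test adds the spread between the libraries, estimated from these same 2, to counting noise. It thus only places the members among all genes. Of 30 log2 ratios of members under another scaling, strand or pseudocount, 26 kept their direction and side of the threshold, 3 (all of Mir181c) newly passed and 1 (Mir181a-2 with TMM factors) no longer did, and 0 turned. The family share of 2.05% became 4.79% of the total without the 10 most abundant genes and 0.983% of all reads, by the change of denominator. Its log2 ratio of replicate 1 over replicate 2 turned from 0.16 to -0.13 with all reads, -0.13 with TMM factors, -0.08 with DESeq2's size factors and -0.05 without the 10 genes, a comparison added after seeing the data. The shares of the clusters and the ratios within them kept their values within 1 SD with counts of either strand. No test exists with either replicate left out. The share was then 1.94% or 2.16%. The number of member hairpins sharing a run of 20 nt, 4, was the same for 18 and 22 nt. Mir181b-1 has the lowest counts, and its fold is the least certain. No paired analysis was possible because there is 1 group.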
